A study of Homo sapiens with 6 samples.

Results

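A set of 10 well-known long noncoding RNAs (lncRNAs), named MALAT1, NEAT1, NORAD, KCNQ1OT1, OIP5-AS1, MIR22HG, LINC-PINT, PVT1, HULC and FTX, was followed in Hep-G2 cells with and without knockdown of CLGN. The rule that chose them uses gene names only. Of these 10 genes, 9 had a row under that name in a table of 58735 genes, LINC-PINT had 2 rows, and HULC had none, so 10 rows were described. Hep-G2 is a liver cancer cell line, and the product of CLGN, calmegin, helps proteins fold in the endoplasmic reticulum. The study asked how the transcriptome of these cells changed once CLGN was knocked down. The control group, sh-NC, was labelled WT with the treatment shcontrol, and the knockdown group, sh-CLGN, was labelled CLGN knock down, with 3 libraries in each group and the batch label 0DAY on all 6. Both hairpins were delivered by lentivirus and followed by puromycin selection. Each group carried 1 hairpin, so an effect of losing CLGN and any other effect of that hairpin cannot be told apart. The labels do not say that the 3 libraries of a group came from separate cultures, so the p-values measure only the spread between these libraries.

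Long noncoding RNAs are transcribed and often processed like messenger RNAs, but they act as RNA. MALAT1 lies in nuclear speckles, bodies rich in splicing factors, and its 3′ end folds into a triple helix in place of a poly(A) tail. NEAT1 is the architectural RNA of paraspeckles, and NORAD and OIP5-AS1 bind proteins and microRNAs away from the site of their transcription. KCNQ1OT1 is transcribed antisense inside KCNQ1 from an imprinted domain and silences genes of that domain, FTX lies in the X inactivation center, PVT1 lies next to MYC, and MIR22HG and LINC-PINT carry or adjoin microRNAs. HULC was first described as a transcript abundant in liver cancer.

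Sequences tied to known roles of these RNAs are printed first. NORAD is known for its many sites for Pumilio proteins, and the letters TGTANATA (N, any base, sense strand) occurred 15 times in its single annotated transcript of 5339 bases in GENCODE 29, which is 2.81 sites per kb. Over the longest transcripts of 13068 tested genes the same letters occurred at 0.128 sites per kb, and 29.97% of these transcripts held at least 1. The windows below, from the NORAD transcript (GRCh38, chr20, minus strand, shown 5′ to 3′ in the sense of the RNA), show 5 of the 15 with the site in capitals, named by the first base of the site in the transcript.
NORAD 761: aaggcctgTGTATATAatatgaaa
NORAD 1140: cactactgTGTATATAgttgacaa
NORAD 1241: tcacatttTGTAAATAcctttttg
NORAD 1451: gtatatagTGTACATAaaggacag
NORAD 2972: ccctactgTGTATATAgcggacaa
MALAT1, MIR22HG and both LINC-PINT rows held 0 matches in their longest transcripts. FTX held 7 (0.571 sites per kb), NEAT1 6 (0.264), OIP5-AS1 1 (0.113) and KCNQ1OT1 9 (0.098).

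OIP5-AS1 is known to pair with the microRNA miR-7. The complement of bases 2 to 8 of miR-7-5p (GTCTTCC, sense strand) occurred 3 times in its longest transcript of 8829 bases, or 0.340 sites per kb, against 0.0863 per kb over the tested transcripts, of which 25.4% held at least 1. The windows below show the 3 matches (GRCh38, chr15, plus strand) with the matched letters in capitals.
OIP5-AS1 724: cagggtttaaaaaaaatGTCTTCCa
OIP5-AS1 2887: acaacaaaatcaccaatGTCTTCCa
OIP5-AS1 8167: tatcctgaatatagtttGTCTTCCc
A match is a description of the letters only.

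In the search for mature microRNAs, which left out PVT1, matches on the same strand were found for MIR22HG, FTX and the LINC-PINT row with identifier ENSG00000226380. The gene annotation also places the microRNA genes MIR612 in NEAT1 and MIR1204 in PVT1 on the same strand, and their sequences are not printed. The RefSeq sequences (GRCh38.p14) of the best known ones are given 5′ to 3′ with the seed, bases 2 to 8, in capitals. The miR-22-3p segment lies at chr17:1713914-1713935 on the minus strand, miR-29b-3p at chr7:130877467-130877489 on the minus strand, and miR-29a-3p at chr7:130876748-130876769, just beyond the end of the LINC-PINT row. The FTX microRNAs miR-421, miR-374b-5p and miR-545-3p lie between chrX:74218392 and chrX:74287147 on the minus strand.
miR-22-3p: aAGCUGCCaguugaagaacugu
miR-29a-3p: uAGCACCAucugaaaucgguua
miR-29b-3p: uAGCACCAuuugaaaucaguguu
miR-421: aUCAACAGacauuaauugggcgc
miR-374b-5p: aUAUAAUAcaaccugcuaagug
miR-545-3p: uCAGCAAAcauuuauugugugc
Of these, miR-29a-3p and miR-29b-3p shared the seed AGCACCA, and no other pair of the 12 microRNAs matched in or beside these 3 rows shared one. The table counts gene rows, so none of the values below is a level of a mature microRNA.

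The 6 libraries held 14955816 to 16244639 reads, recovered from the deposited FPKM values (fragments per kilobase of exon, scaled to library size), and all values came out whole within 0.01 of a read. CLGN itself was 24.1, 21.0 and 26.1 FPKM in sh-NC and 9.48, 8.88 and 8.60 FPKM in sh-CLGN, a log2 fold change of −1.31 (SE 0.081, limma, Benjamini-Hochberg adjusted p = 8.35e-06). Libraries correlated at 0.988 to 0.992 within groups and at 0.937 to 0.945 between groups on log2(FPKM + 1). The sh-CLGN libraries had a read on 26814 to 27006 genes against 23578 to 23793 in sh-NC, and their mitochondrial share was 5.49% to 5.80% of reads against 3.25% to 4.02%. All 10 liver cell markers passed the filter below, with summed levels of 7411 to 7622 FPKM in sh-NC and 7621 to 8096 FPKM in sh-CLGN. This sum held moves both ways, as 4 of the 10 rose, 5 fell and 1 did not pass (5, 3 and 2 when scaled by read totals, 5, 2 and 3 with quantile normalization). ALB (albumin) went from 2007 ± 70.9 to 1076 ± 27.7 FPKM (log2 fold change −0.90, limma adjusted p = 7.88e-06), TF (transferrin) from 181 ± 3.32 to 58.4 ± 0.483 FPKM (−1.62, adjusted p = 4.15e-07) and FGB (fibrinogen beta chain) from 280.4 ± 13.5 to 463 ± 24.1 FPKM (0.72, adjusted p = 2.98e-05). Of 6 fibroblast and stroma markers, LUM, COL3A1 and PDGFRB were tested and all 3 rose, while DCN, THY1 and FAP were at or near 0, and the list summed to 2.54 to 2.96 FPKM in sh-NC and 5.69 to 6.60 FPKM in sh-CLGN. Of 6 blood and endothelium markers only PECAM1 was tested, and the list summed to 3.35 to 3.70 FPKM in sh-NC and 2.52 to 2.68 FPKM in sh-CLGN. The part of these shifts in the lncRNA results was not tested.

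Limma was run on the 13074 genes that reached 1 FPKM in 3 or more libraries, on the log2(FPKM + 1) scale. Of the 10 rows, 5 passed, namely MALAT1, NEAT1, OIP5-AS1, MIR22HG and NORAD, and each of these exceeded 1 FPKM in all 6 libraries. In this fit 65.8% of all genes passed an adjusted p of 0.05 in either direction, and 26.7% passed it as higher in sh-CLGN. Of the 5 lncRNAs, 3 (MALAT1, NEAT1 and OIP5-AS1) passed as higher and none passed as lower. Among the 1104 tested lncRNA genes 41.3% were called higher, with a median log2 fold change of 0.25 against −0.08 over all tested genes. A call in the upward direction was therefore more frequent among lncRNA genes in general than over the whole table.

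MALAT1 showed the largest change of the 5. Its level was 3.69, 3.24 and 3.43 FPKM in sh-NC libraries 1 to 3 and 16.4, 12.7 and 10.1 FPKM in sh-CLGN, from 455, 418 and 468 reads and from 2454, 1833 and 1436 reads. Every sh-CLGN library lay above every sh-NC library, and the lowest sh-CLGN value was 2.73 times the highest sh-NC value. The means were 3.45 ± 0.227 and 13.0 ± 3.17 FPKM (SD, n = 3 each), a 3.78-fold difference of mean levels, and the log2 fold change was 1.63 (SE 0.147, limma adjusted p = 4.4e-05). MALAT1 was the only one of the 5 to pass both the adjusted p and a 2-fold change in this fit, which 3.09% of all tested genes and 6.79% of lncRNA genes did as higher in sh-CLGN. It stood at rank 72 of 13074 by log2 fold change, and at rank 8 of the 1104 lncRNA genes. Its spread was also wider in one group, with a coefficient of variation of 6.57% in sh-NC and 24.3% in sh-CLGN. The gene lies at chr11:65497688-65506516 on the plus strand (GRCh38), where the annotation holds 17 transcripts that merge into 1 exonic block of 8829 bases, of which 6.21% is shared with other annotated features. The 3 features sharing those bases, among them the antisense lncRNA AP000769.2, were listed at 0 in all 6 libraries.

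NEAT1, its neighbour on chromosome 11, moved the same way by a smaller amount. Its level was 2.07, 1.95 and 2.14 FPKM in the sh-NC libraries and 4.41, 4.21 and 4.04 FPKM in sh-CLGN, so the groups did not overlap and the spread within each was narrow. The means were 2.05 ± 0.0993 and 4.22 ± 0.186 FPKM (SD, n = 3 each), a 2.06-fold difference of mean levels. On the log2(FPKM + 1) scale, which understates changes of low genes, the difference was 0.77 (SE 0.067, limma adjusted p = 3.7e-05), at rank 156 of the 1104 lncRNA genes. NEAT1 lies at chr11:65422774-65445540 on the plus strand, as 1 exonic block of 22767 bases in 8 transcripts that include a short and a long form. The table gives 1 value for the gene, so the short form and the long form, which builds paraspeckles, were not separated.

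The ratio of MALAT1 to NEAT1, both in FPKM, averaged 1.68 ± 0.0949 in the sh-NC libraries and 3.07 ± 0.612 after knockdown (SD, n = 3 each). In the single libraries it was 1.79, 1.67 and 1.60 for sh-NC, against 3.71, 3.01 and 2.49 for sh-CLGN. The exact two-sided permutation test gave p = 0.1, the smallest value that 3 against 3 libraries allow. FRMD8, the protein-coding gene on the NEAT1 side of this pair, fell. It was 15.6 ± 0.952 FPKM in sh-NC and 12.3 ± 0.276 FPKM in sh-CLGN (log2 fold change −0.31, limma adjusted p = 0.0017), and the groups did not overlap.

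OIP5-AS1, also known as Cyrano, had the second highest level of the 10 rows. Its level was 9.13, 9.49 and 10.3 FPKM in sh-NC and 17.1, 17.5 and 15.9 FPKM in sh-CLGN, with no overlap between the groups. The means of 9.64 ± 0.598 and 16.9 ± 0.870 FPKM (SD, n = 3 each) differed 1.75-fold, and the log2 fold change was 0.75 (SE 0.063, limma adjusted p = 3.4e-05). Its locus, chr15:41283990-41309737 on the plus strand, overlaps the protein-coding gene OIP5 on the opposite strand over 470 exonic bases. Strand use in counting is not given in the sources used here, so reads in those bases cannot be assigned to one of the pair, and in all 6.29% of the exonic bases of OIP5-AS1 are shared. OIP5, a centromere protein, fell from 16.5 ± 0.749 to 12.2 ± 0.391 FPKM (log2 fold change −0.40, limma adjusted p = 0.00034), and CHP1, the upstream neighbour, fell from 39.7 ± 1.25 to 22.6 ± 0.800 FPKM (−0.79, adjusted p = 8.62e-06).

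MIR22HG, the host gene of miR-22, did not pass the test. Its level was 5.26, 6.35 and 5.84 FPKM in sh-NC and 6.32, 6.95 and 7.18 FPKM in sh-CLGN, and the groups overlapped by a small margin. The log2 fold change was 0.20 (SE 0.078, limma adjusted p = 0.0524), a value that moved across the threshold under several settings and is given with them in the closing section. The locus spans chr17:1711493-1717174 on the minus strand. Of the genes around it, TLCD2 fell from 3.24 ± 0.137 to 1.62 ± 0.173 FPKM (log2 fold change −0.69, limma adjusted p = 0.00014) and SERPINF2, the plasmin inhibitor made by liver cells, fell from 219 ± 15.7 to 94.2 ± 2.21 FPKM (−1.21, adjusted p = 3.76e-06). WDR81, which overlaps the locus on the opposite strand, gave −0.21 (adjusted p = 0.0555).

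NORAD was the most abundant of the 10 rows in both groups. Its level was 45.8, 47.2 and 51.3 FPKM in sh-NC and 50.7, 53.3 and 49.3 FPKM in sh-CLGN, and the groups overlapped. The log2 fold change of 0.09 (SE 0.057, limma adjusted p = 0.216) did not pass the test. NORAD is annotated as 1 exon at chr20:36045622-36050960 on the minus strand, and no other annotated exon shares its bases. PUM2, a Pumilio protein that binds its sites, was 15.2 ± 1.30 and 17.3 ± 0.334 FPKM (log2 fold change 0.18, limma adjusted p = 0.0402). The PUM2 call was lost with no filter (adjusted p = 0.0845), with a mean of at least 0.1 FPKM (0.0595), with the GC trend removed (0.113), in limma without a trend (0.0576), with the replicate block (0.0577) and in each limma fit that left out 1 library other than sh-NC 3 (0.0749 to 0.12).

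**Figure D1:**
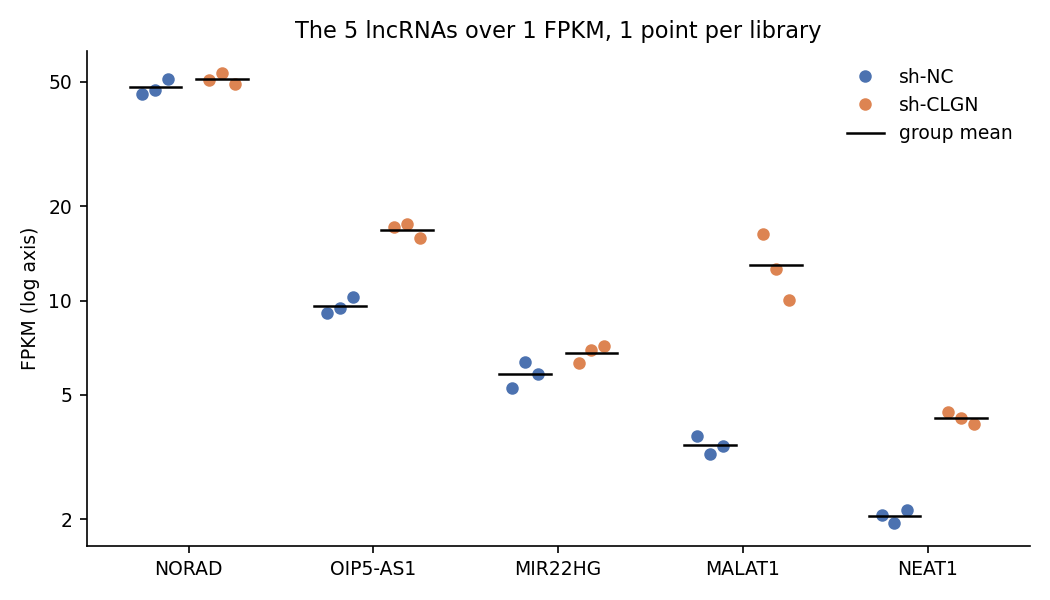
Level of the 5 lncRNAs over 1 FPKM in each of the 6 libraries (log axis, FPKM), with sh-NC in blue, sh-CLGN in orange and a bar at each group mean. The sh-CLGN points of MALAT1, NEAT1 and OIP5-AS1 lie above all sh-NC points, while the groups overlap for NORAD and MIR22HG.

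All 3 sh-CLGN libraries lay above all 3 sh-NC libraries for 3 of these 5 rows, which was so for 28.7% of the genes past the filter. Ordered by level in FPKM, the sh-NC series was NORAD, OIP5-AS1, MIR22HG, MALAT1 and NEAT1, and no neighbours in that order overlapped. Below them KCNQ1OT1, FTX, PVT1 and ENSG00000231721 of LINC-PINT overlapped their neighbours in sh-NC at 0.132 to 0.169 FPKM on average. In sh-CLGN, MALAT1 stood above MIR22HG, and its range of 10.1 to 16.4 FPKM overlapped that of OIP5-AS1 at 15.9 to 17.5 FPKM. NORAD was 13.97 ± 1.37 times the MALAT1 level in sh-NC and 4.07 ± 0.909 times in sh-CLGN (SD, n = 3 each, exact two-sided permutation p = 0.1, the smallest value this design allows).

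Promoter sequences show how differently these genes begin. RefSeq gives 2 promoter windows for MALAT1, 250 bases before to 50 after a start, and 1 for OIP5-AS1 (GRCh38.p14, plus strand). They are printed here because MALAT1 and OIP5-AS1 passed as higher in the fit on FPKM. NEAT1, which also passed, had no window. Motifs were searched on both strands, and matches are in capitals. They were the CCAAT box spelled CCAAT, the E-box spelled CACGTG, the cAMP response element spelled TGACGTCA, the AP-1 element spelled TGANTCA, the GC box spelled GGGCGG, the TATA box spelled TATAAA and the ETS site spelled CCGGAAG. No matches overlapped in the 3 windows.
MALAT1 chr11:65497488-65497787: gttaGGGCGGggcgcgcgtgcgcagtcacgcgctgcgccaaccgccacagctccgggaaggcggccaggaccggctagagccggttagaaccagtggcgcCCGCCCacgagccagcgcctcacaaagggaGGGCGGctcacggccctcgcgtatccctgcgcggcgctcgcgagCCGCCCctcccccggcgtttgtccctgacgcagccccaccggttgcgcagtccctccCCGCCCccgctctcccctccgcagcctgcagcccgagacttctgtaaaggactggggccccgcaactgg
MALAT1 chr11:65498795-65499094: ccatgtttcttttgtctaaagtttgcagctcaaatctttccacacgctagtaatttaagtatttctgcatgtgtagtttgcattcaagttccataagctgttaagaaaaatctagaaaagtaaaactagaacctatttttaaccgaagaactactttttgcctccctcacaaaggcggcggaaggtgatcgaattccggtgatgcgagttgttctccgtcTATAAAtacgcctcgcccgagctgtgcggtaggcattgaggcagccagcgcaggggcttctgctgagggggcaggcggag
OIP5-AS1 chr15:41283740-41284039: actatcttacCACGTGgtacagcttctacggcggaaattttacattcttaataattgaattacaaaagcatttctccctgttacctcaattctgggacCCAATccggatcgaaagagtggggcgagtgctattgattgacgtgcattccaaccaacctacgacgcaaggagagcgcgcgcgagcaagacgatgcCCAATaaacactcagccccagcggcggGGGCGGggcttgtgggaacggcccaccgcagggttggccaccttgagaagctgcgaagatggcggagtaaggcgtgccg
The first MALAT1 window was 73.7% GC with 5 GC boxes and 37 CpG dinucleotides, against a median of 58.7% GC and 14 CpG over 35116 promoters, 45.0% of which held a GC box. The second was 46% GC and held a TATA box starting 30 bases before the start, a motif present in 11.5% of all promoters. The OIP5-AS1 window held 2 CCAAT boxes, 1 E-box and 1 GC box, motifs found in 34.6%, 7.26% and 45.0% of all promoters. The cAMP response element, in 1.85% of all promoters, the AP-1 motif, in 7.71%, and the ETS motif, in 10.3%, had no match in these 3 windows. FTX and LINC-PINT, described below, also have windows, which are not printed. The window of the LINC-PINT row ENSG00000226380 held 2 AP-1 motifs, 1 E-box, 1 CCAAT box and 1 GC box. The other LINC-PINT windows held GC boxes only, and the FTX window held no match.

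The remaining 5 rows were under the FPKM filter and were described by their reads, with voom on all genes with at least 10 reads in at least 3 libraries, a fit chosen after seeing the data. Among the 3496 genes under the FPKM filter in that fit, 41.8% were called higher in sh-CLGN, 29.1% were called higher by at least 2-fold, and the median log2 fold change was 0.53. Of the 5 rows, 4 were called higher and 3 of these by at least 2-fold. All sh-CLGN libraries lay above all sh-NC libraries for 4 of the 5, and for 45.4% of the 3496 genes. The LINC-PINT row ENSG00000226380 had 10 reads or more only in sh-CLGN, so it entered this fit through the group where it is high. Its call is therefore not independent of the filter, and the shares over the 3496 genes can include rows that entered the same way.

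KCNQ1OT1 drew the most reads of the low rows despite its low level. The sh-NC libraries gave 203, 202 and 279 reads and the sh-CLGN libraries 716, 701 and 828, or 0.159, 0.151 and 0.197 FPKM and 0.460, 0.466 and 0.559 FPKM over its unspliced 91667 bases. The groups did not overlap, the mean level differed 2.94-fold, and the log2 fold change was 1.55 (SE 0.111, limma-voom adjusted p = 1.44e-10). The gene lies at chr11:2608328-2699994 on the minus strand, inside KCNQ1, which encodes a potassium channel and was itself at 0.00998 ± 0.00865 FPKM in sh-NC and 0.0459 ± 0.0290 FPKM in sh-CLGN. Strand use in counting is not given in the sources used here, so reads from KCNQ1 introns on the opposite strand cannot be told apart from KCNQ1OT1. CDKN1C, the cell cycle inhibitor that the imprinted domain silences on one allele, was 2.21 ± 0.187 and 2.18 ± 0.116 FPKM and did not pass the test (log2 fold change −0.01, limma adjusted p = 0.881).

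FTX drew 53, 57 and 68 reads from the sh-NC libraries, against 153, 122 and 145 reads from sh-CLGN. The groups did not overlap, and the log2 fold change was 1.06 (SE 0.165, limma-voom adjusted p = 1e-05). Its 24 exonic blocks on chrX:73946555-74293574, minus strand, share 44.3% of their bases with other features, chiefly 10580 bases with JPX on the opposite strand, so its value is uncertain. JPX itself was 0.156 ± 0.0483 FPKM in sh-NC and 0.153 ± 0.0487 FPKM in sh-CLGN, with overlapping groups.

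LINC-PINT has 2 rows. The row nearest its main promoter, ENSG00000231721 at chr7:130938963-131110176, drew 16, 25 and 11 reads from the sh-NC libraries, against 39, 32 and 36 from sh-CLGN, a log2 fold change of 0.93 (SE 0.310, limma-voom adjusted p = 0.0120). This call was lost without sh-NC replicate 3, with a log2 fold change of 0.60 and an adjusted p of 0.0925. The distal row, ENSG00000226380 at chr7:130876809-130913310, which carries miR-29b-1, drew 3, 4 and 0 reads from sh-NC libraries 1 to 3, against 23, 22 and 27 from sh-CLGN. A count of 0 allows up to 3 reads, or 0.0293 FPKM in that library. Summed over each group and divided by the read totals, the 72 reads against 7 gave a ratio of 10.5, with an exact 95% interval of 4.83 to 27.0 that covers counting error only. The ratio was 6.83 (3.15 to 17.6) without sh-NC 3 and 16.3 (5.36 to 80.9) without sh-NC 2, so these control libraries move it by over 1.5 times, and 9.75 to 12.5 without any 1 of the other 4. Both rows share bases with the same-strand lncRNA AC016831.6, 1958 and 2010 of them, and 29.6% and 31.6% of their exonic bases are shared in all.

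PVT1 drew 6, 15 and 12 reads from the sh-NC libraries, against 12, 16 and 26 from sh-CLGN. The groups overlapped, and the log2 fold change of 0.52 (SE 0.405, limma-voom adjusted p = 0.27) did not pass the test. It was 0.20 without sh-NC 1, 0.21 without sh-CLGN 3, 0.78 without sh-NC 2 and 0.79 without sh-CLGN 1, and passed in none of the 6 fits that left out 1 library (adjusted p 0.117 to 0.704). MYC, the oncogene next to PVT1, was well measured and fell from 39.3 ± 2.65 to 23.8 ± 1.08 FPKM (log2 fold change −0.70, limma adjusted p = 4.4e-05).

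**Figure D2:**
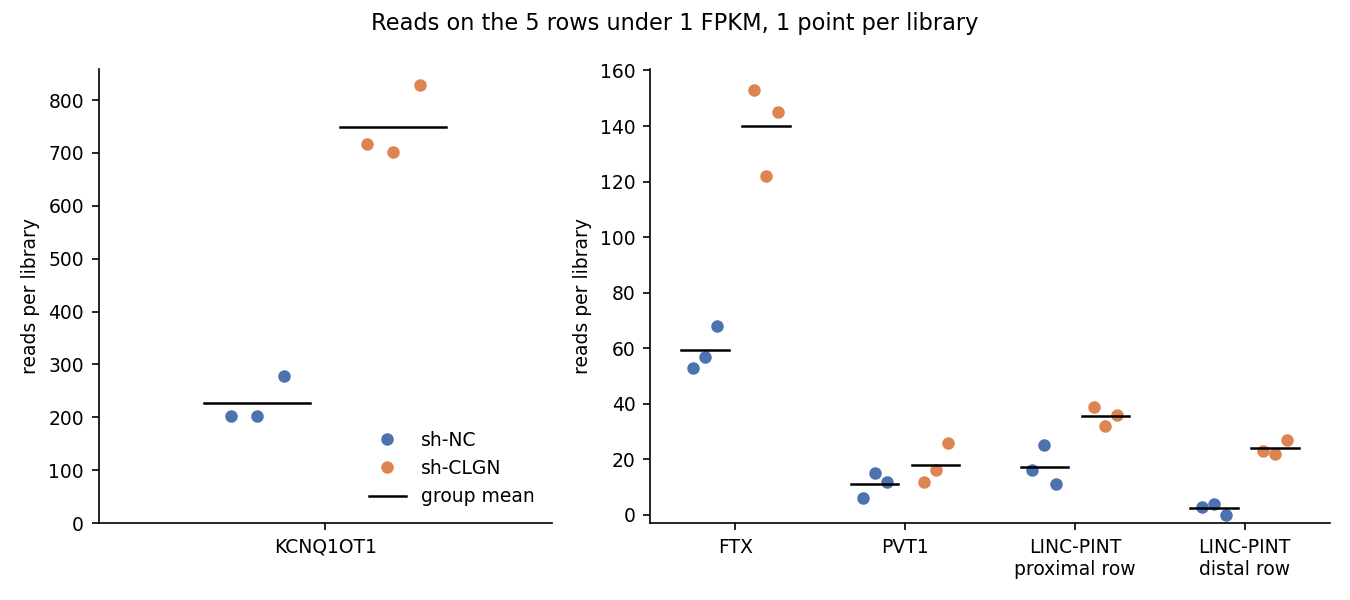
Reads per library on the 5 rows under 1 FPKM, with sh-NC in blue, sh-CLGN in orange and a bar at each group mean; the proximal LINC-PINT row is ENSG00000231721 and the distal one ENSG00000226380. KCNQ1OT1 goes from 202 to 279 reads (sh-NC) to between 701 and 828 (sh-CLGN), and PVT1 is the only row of the 5 whose groups overlap.

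**Figure D3:**
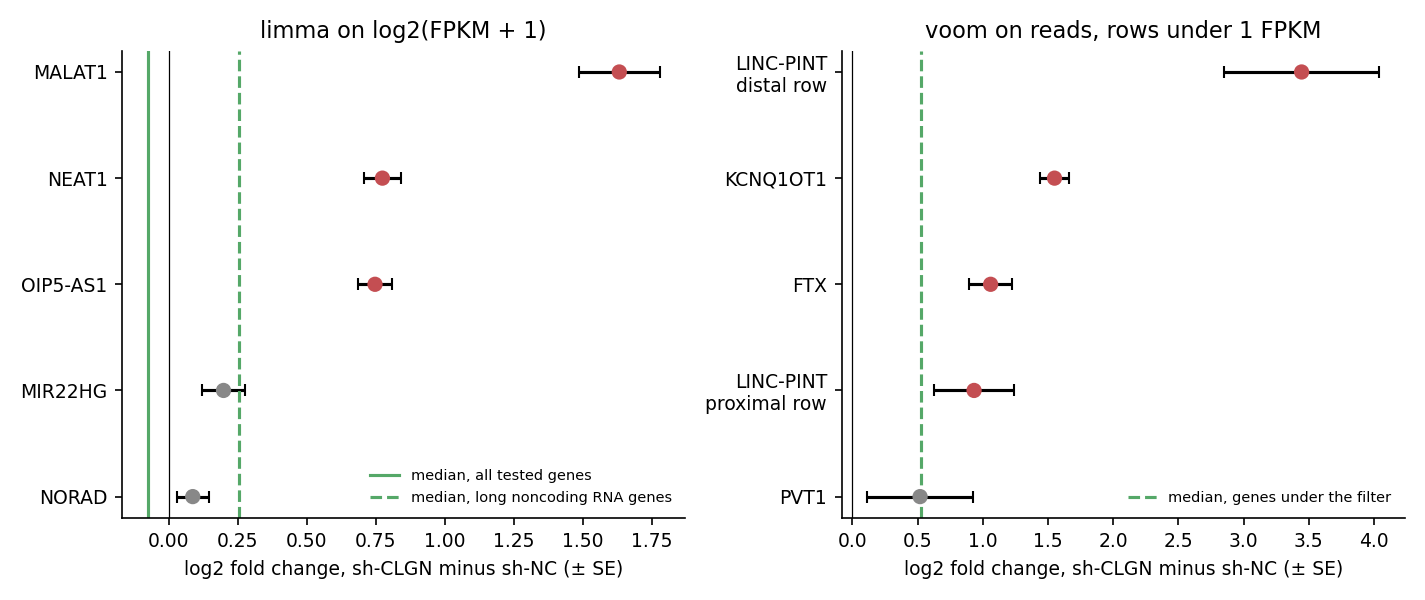
Log2 fold change (sh-CLGN minus sh-NC, bars ± SE) of the 5 tested rows by limma on FPKM (left) and of the 5 low rows by voom on reads (right), in red where the adjusted p is at most 0.05, with green lines at the medians of the genes named in the key. MALAT1 lies farthest from the lncRNA median of 0.25 on the left, PVT1 lies beside the median of 0.53 on the right, and the distal LINC-PINT value depends on the small number of added reads the fit uses.

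Together the 10 rows took 6640 to 8116 reads in sh-NC, or 0.0444% to 0.04996% of each library, and 11828 to 13697 reads in sh-CLGN, or 0.0784% to 0.0874%. The composition of that share shifted. MALAT1 supplied 5.77% to 6.85% of these reads in the controls and 12.1% to 17.9% after knockdown, while NORAD supplied 51.4% to 52.2% and 33.5% to 36.0%. All genes with a lncRNA biotype together took 0.762% to 0.791% of reads in the controls and 1.09% to 1.12% after knockdown. In bulk libraries a change in the mix of cells and a change in RNA per cell cannot be told apart.

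**Figure D4:**
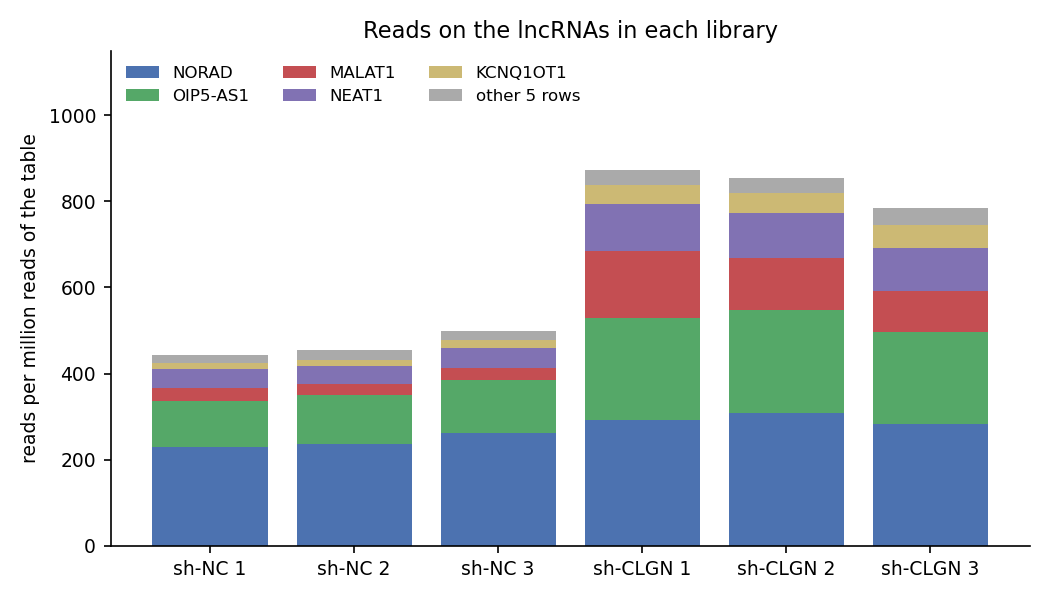
Reads on the lncRNAs, scaled to the reads of the whole table, in each of the 6 libraries, stacked by gene, with the rows MIR22HG, FTX, PVT1 and both LINC-PINT rows pooled in grey. The sh-CLGN bars are taller in all 3 libraries, and the MALAT1 and OIP5-AS1 segments grow. When scaled by read totals as drawn here, NORAD was also called higher (log2 fold change 0.28, limma adjusted p = 0.00488), by less than MALAT1 (1.80) and OIP5-AS1 (0.93).

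GC content moved with the change over the whole table. Tested genes whose longest transcript was under 38% GC had a median log2 fold change of 0.25, and those over 50% GC had −0.24. FTX at 37.2%, OIP5-AS1 at 38.4%, MALAT1 at 40.3% and NORAD at 41.6% lay toward the low end, and NEAT1 at 44.1% and MIR22HG at 49.5% nearer the middle. With that trend removed, the log2 fold change was 1.53 for MALAT1, 0.78 for NEAT1, 0.58 for OIP5-AS1, 0.34 for MIR22HG and 0.02 for NORAD.

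Proteins that bind or build around these RNAs were taken from lists, to be read beside the 3496 genes called higher and 5102 called lower of the 13074 tested. Of 12 tested paraspeckle proteins, 3 rose, 7 fell and 2 did not pass, with a median log2 fold change of −0.23 beside −0.08 over all tested genes. Among them SFPQ, a core partner of NEAT1, fell from 71.4 ± 1.98 to 49.2 ± 0.587 FPKM (log2 fold change −0.53, limma adjusted p = 2.96e-05), and PSPC1, also of that core, gave −0.43 (adjusted p = 0.00014). NONO, the third protein of that core, rose from 58.2 ± 1.56 to 75.3 ± 1.70 FPKM (0.36, limma adjusted p = 0.00022). Of 12 nuclear speckle proteins, the compartment of MALAT1, 1 rose, 7 fell and 4 did not pass, with a median of −0.26. The splicing cofactor SRRM1 fell from 19.4 ± 0.445 to 9.52 ± 0.570 FPKM (−0.96, limma adjusted p = 6.8e-06), and SRSF7 and HNRNPC fell by 0.57 and 0.50 on the log2 scale.

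Factors of RNA 3′-end processing and turnover were next. The list included ELAC2, an RNase Z, subunits of RNase P, which cuts the MALAT1 3′ end, and METTL16, which binds the MALAT1 triple helix. Of 11 tested genes, 2 rose, 6 fell and 3 did not pass, with a median of −0.24. ELAC2 fell from 24.6 ± 0.869 to 18.1 ± 0.145 FPKM (log2 fold change −0.42, limma adjusted p = 0.00014), and POP1 (−0.41) and RPP25 (−0.49) also fell. Of 18 tested genes of the nuclear RNA exosome, which degrades nuclear transcripts, and its adaptors, 2 rose, 10 fell and 6 did not pass, with a median of −0.27. The core subunits EXOSC2 (−0.73) and EXOSC3 (−0.53) fell, while ZFC3H1, which links the exosome to polyadenylated nuclear RNA, rose from 2.12 ± 0.185 to 4.95 ± 0.166 FPKM (0.93, limma adjusted p = 1.96e-05). Without sh-NC 3 the number of exosome genes higher was 4.

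Of 8 lncRNA-binding regulators, 2 rose and 5 fell, with a median of −0.22. These counts were not stable, since the 2 higher became 0 with no filter, with a mean of at least 0.1 FPKM, with the GC trend removed and without any 1 library other than sh-NC 3, and 1 in limma without a trend or with the replicate block. The 5 lower became 2 with TPM scaling, 1 by read totals and 1 with quantile normalization, where the median was 0.07. ELAVL1 (HuR), a stabilizer of many transcripts, fell from 33.5 ± 0.519 to 21.5 ± 0.517 FPKM (log2 fold change −0.61, limma adjusted p = 1.63e-05). IGF2BP2 gave −0.28 and KHDRBS1 −0.27, but both lost their call under other scalings, and KHDRBS1 turned slightly positive, at 0.02, under 1 of these. Of 9 Polycomb and silencing factors, 2 rose and 5 fell, with a median of −0.19. The histone methyltransferase EZH2 fell from 24.9 ± 0.431 to 14.1 ± 0.328 FPKM (−0.78, limma adjusted p = 6.6e-06), RBBP7 gave −0.70, and JARID2 rose from 3.82 ± 0.0492 to 6.76 ± 0.337 FPKM (0.69).

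Of 8 other noncoding RNAs tested, 2 rose, 3 fell and 3 did not pass, with a median of −0.14. TUG1, another abundant lncRNA, rose from 13.6 ± 0.739 to 21.6 ± 0.831 FPKM (log2 fold change 0.63, limma adjusted p = 4.4e-05), whereas CYTOR (−0.38) and LINC00511 (−0.55) fell. The number higher was 1 without sh-NC 3, without sh-CLGN 1 or without sh-CLGN 3. RN7SK and RMRP, abundant RNAs without a poly(A) tail, were listed at 0 in all 6 libraries, and how RNA was selected for these libraries is not given in the sources used here, so the MALAT1 level counts only what the kit captured.

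**Figure D5:**
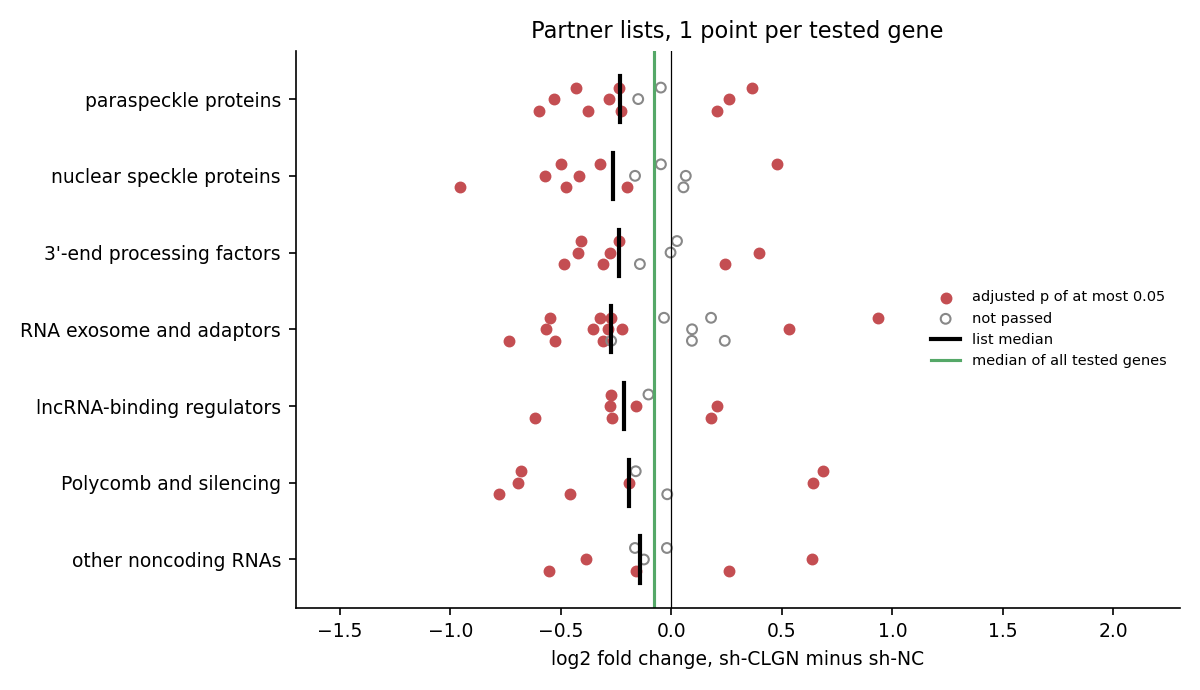
Log2 fold change (sh-CLGN minus sh-NC, limma on FPKM) of every tested gene of 7 lists, filled in red where the adjusted p is at most 0.05, with a black bar at the list median and a green line at the median of all tested genes. With the deposited scaling drawn here all 7 list medians lie below that line, between −0.27 and −0.14.

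The counts of these lists depended on scaling. Over all tested genes 3496 were called higher and 5102 lower with the deposited scaling, 4285 and 3923 with TPM, and 4956 and 3421 when scaled by read totals. In the last case 3 paraspeckle proteins rose and 4 fell, and 6 exosome genes rose and 4 fell. With quantile normalization 4 nuclear speckle proteins rose and 4 fell, and the paraspeckle median was 0.06. Of the 31 genes chosen by the naming rule from the lists and markers, 30 kept their direction under the deposited and 5 other scalings. KHDRBS1 was the exception, and 27 passed the test in all 6. The 5 included GC correction and median-ratio scaling, which divided every library by the same factor and so all but repeated the deposited scaling.

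Protein-coding genes next to or overlapping the lncRNAs were taken by position. Of 21 such genes 12 were tested, 2 rose and 6 fell, with a median of −0.26. The 2 that rose were EPB41L1 beside NORAD (log2 fold change 0.39, limma adjusted p = 0.00303) and MKLN1 overlapping LINC-PINT, which went from 4.18 ± 0.398 to 6.82 ± 0.457 FPKM (0.59, adjusted p = 0.0003). NUSAP1, on the far side of OIP5-AS1, gave 0.08 (adjusted p = 0.474).

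Genes whose profile over the 6 libraries was closest to that of a member were found by root mean square distance of centred log2(FPKM + 1) values. For MALAT1 these were TMSB4X (0.105), which encodes the actin-binding thymosin beta 4, F2RL2 (0.123), a protease-activated receptor, and RNU6-1011P (0.124), a U6 pseudogene. TMSB4X was 3.19, 2.49 and 2.84 FPKM in sh-NC and 13.9, 11.2 and 10.5 FPKM in sh-CLGN. It was picked for its likeness to MALAT1, so a shared pattern over the libraries follows from the choice. For NEAT1 they were DNAJA1 (0.0188), a co-chaperone, STRAP (0.0219) and LSMEM1 (0.0256). DNAJA1 was 69.3 to 73.6 FPKM in sh-NC and 121 to 126 FPKM in sh-CLGN. F2RL2, RNU6-1011P and LSMEM1 reached 1 FPKM only in sh-CLGN, so they passed the filter through the group where they are high.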

How the data were processed

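RNA-seq was deposited for 3 sh-NC and 3 sh-CLGN Hep-G2 libraries. Per the submitters' processing notes, reads were aligned with HISAT2 2.0.5 to GRCh38 and counted with featureCounts. Library RNA selection, strand setting and annotation are not given in the sources used here, but the positions of all 58735 genes equal GENCODE 29. The deposited unit is FPKM per gene, made by the authors, with library sizes that were 0.933 to 0.953 times the recovered reads in sh-NC and 1.07 to 1.08 times in sh-CLGN. Every column of values was assigned to a sample (0 left over).

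Reads were recovered from the steps of the FPKM values and gene lengths. Genes reaching 1 FPKM in 3 or more libraries were fitted with limma 3.58.1 (R 4.3.3; lmFit, eBayes with trend) on log2(FPKM + 1), with Benjamini-Hochberg adjustment over all 13074 genes and a threshold of 0.05. Rows under the filter were fitted with limma-voom on genes with at least 10 reads in at least 3 libraries, using the deposited library sizes. Fits were tested on simulated data in which 200 genes were changed. Of the calls, 6.74% to 7.78% were false in the fit on FPKM and 5.08% to 6.04% in the voom fit. The simulation changed far fewer genes than were called in these data. Alternatives changed the pseudocount (0.1), the filter, the scaling, the test, a GC trend, the replicate block and each library in turn. Values are mean ± SD.

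Genes named were the 10 lncRNAs, CLGN, of each list the 3 tested genes with the smallest adjusted p and the 1 with the largest change, tested neighbours and overlapping genes, and for MALAT1 and NEAT1 the 3 genes with the closest profile. PUM2, NONO, JPX, KCNQ1, RN7SK and RMRP were named outside that rule, after their values were seen. The lncRNAs and lists were chosen with earlier results of these data known. Sequences came from RefSeq (GRCh38.p14) and GENCODE 29 transcripts, and RefSeq promoter windows were searched for 6 of the 10 lncRNAs. PVT1 was left out of the promoter, transcript and microRNA searches. HULC was not analysed here, and some genes that the rule names are not reported here.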

Additional observations from a re-analysis of the deposited data

How the results depend on the processing

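MALAT1, NEAT1 and OIP5-AS1 stayed past the threshold and higher in sh-CLGN in 18 of 18 alternatives each. Their log2 fold changes were 1.47 to 1.93, 0.73 to 1.06 and 0.58 to 0.93. Median-ratio scaling, 1 of the 18, divided all 6 libraries by the same factor (1.01). It therefore all but repeated the reported fit and was no separate check, here or in the list counts below. The number of rows past the adjusted p, 3 with the reported settings, was 6 with no filter, 5 with a mean of at least 0.1 FPKM, 5 with TPM scaling, 5 with quantile normalization, 5 with scaling by read totals, and 7 by voom for genes of 10 reads or more, of 10 rows in the fits without the FPKM filter and of 5 otherwise. The number past the adjusted p and a 2-fold change, 1 as reported, was 2 with a pseudocount of 0.1, 2 with TPM scaling, 2 with voom on recovered reads (NEAT1 being the added one in these 3) and 5 by voom for genes of 10 reads or more. NORAD and MIR22HG gained a call under TPM (log2 fold changes 0.21 and 0.34), quantile normalization (0.37 and 0.28) and read totals (0.28 and 0.37). TPM and read totals raised the median of all genes by 0.11 and 0.16, and relative to that shift the NORAD values were close to the reported one. Quantile normalization raised the median by 0.06, and the NORAD value there (0.37) exceeded the reported 0.09 by more than that shift. MIR22HG also gained one with the GC trend removed (0.34), without sh-NC replicate 2 and without sh-CLGN replicate 1, and NORAD without sh-NC replicate 3 (0.13, limma adjusted p = 0.0445). FTX missed the threshold in the log2(FPKM + 1) fit with a mean of at least 0.1 FPKM (0.18, adjusted p = 0.0827), and ENSG00000231721 of LINC-PINT in both fits with the looser filters. The causes were not tested, and no lncRNA value changed sign. Same-numbered libraries did not deviate together (correlations of −0.02, −0.05 and −0.15). With 3 libraries per group this cannot settle whether libraries of the same number were prepared together. With the replicate block 8038 genes passed in place of 8598, and MIR22HG at 0.20 passed with an adjusted p of 0.0445, while MALAT1, NEAT1 and OIP5-AS1 kept their calls and NORAD stayed without one (0.301). Of 288 list counts over all alternatives, 255 stayed within 1.5 times the reported count. PVT1 and both LINC-PINT rows, with at most 39 reads per library, are limited by depth.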
